A study of Rattus norvegicus with 6 samples.

Results

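Beta-2-microglobulin, encoded by B2m, is 1 of 38 genes that the probes of this piRNA array name, and it was read in rat pancreatic islets by 3 custom probes out of 39886 non-control probes. The probes were taken by their accession, NM_012512, and are called CUST_1, CUST_2 and CUST_3 here after their names in the files. B2m lies on rat chromosome 3, from 129549236 to 129555354 in the RefSeq annotation of GRCr8. The probe sequences, the stretch of the transcript or gene that each probe matches, and the strand were not analysed here. Signal values did not enter the choice of probes, only outlier flags entered the choice of spots, and the gene itself was singled out with earlier results of these arrays known. The p-values below therefore describe the data and are no independent evidence.

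B2m encodes the light chain of MHC class I molecules. It binds the class I heavy chain without being anchored in the membrane itself, and without it most class I molecules do not reach the cell surface to present peptides to CD8 T cells. It also pairs with relatives of class I such as CD1d, MR1, HFE and the neonatal Fc receptor. B2m is transcribed in nearly all nucleated cells and is induced by interferons, yet it is also in common use as a reference gene for expression assays, where it is assumed to vary little.

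The arrays held islet total RNA of 3 Wistar rats (Wistar 1 to 3), the control strain, and 3 Goto-Kakizaki rats (GK 1 to 3), which are lean, develop type 2 diabetes and were bred from Wistar rats, all 3 months old and with no treatment named in the labels. RNA was extracted individually per the labels, and its 3' ends were joined to Cy3 with T4 RNA ligase, so the array reads any RNA with a free 3' end that matches a probe, and a probe on this array does not separate a whole mRNA from its fragments. Wistar 1, 2 and 3 and GK 1 were read in the first scan. GK 2 and GK 3 were read in a later one, at array positions already used in the first. They therefore lay on a second slide, which held no Wistar sample of this series. Over all probes the median signal was 2.43 to 3.42 on 5 arrays and 7.87 on GK 2, which stands apart. The number of arrays limits the precision.

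Among the other probes that a RefSeq accession tied to a gene, 0 of 28 listed genes of antigen presentation (class I heavy chains, peptide transporters, immunoproteasome subunits, interferon factors) were represented. The same held for all 32 listed markers of islet endocrine, acinar, ductal, immune, endothelial and stromal cells. The labelled tissue could therefore not be checked against its markers, and the cell makeup of the samples was not tested. In islet RNA, fewer cells of a type and less RNA per cell cannot be told apart.

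Each probe had 10 spots per array, spread over rows 45 to 484 of 532. All 180 B2m spot values were well above background in the scanner software's call, 0 were saturated, and 7 carried an outlier flag and were left out (3 of CUST_1, 0 of CUST_2 and 4 of CUST_3). The spots of a probe on an array varied with a coefficient of variation of 4.67% to 10.4%. Over the 73 probes with 10 spots that were detected on all arrays, the median was between 7.51% and 9.76% per array. Spots share 1 hybridised sample, so this spread is technical and is not used as replication below.

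The 3 probes did not give the same picture. CUST_2 separated the strains before any scaling. Its mean processed signal (background-subtracted intensity in arbitrary units) was 97.2, 81.1 and 72.0 on Wistar 1, 2 and 3, against 332.5, 173.4 and 167.9 on GK 1, 2 and 3. The lowest GK array lay above the highest Wistar array, and so did the single spots, with 152.6 as the lowest spot on a GK array and 111.0 as the highest on a Wistar array. GK 1, on the slide shared with the Wistar arrays, was the brightest. GK 2 and GK 3 differed by less than the spot SD of GK 2 (8.09) or GK 3 (14.4).

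CUST_1 was dimmer and overlapped between the strains before scaling. Its signal was 28.2, 20.5 and 33.2 in the Wistar samples and 60.5, 35.6 and 28.1 in the GK samples. GK 1 stood above all others, and GK 3 lay below Wistar 1 and Wistar 3. CUST_3 overlapped as well, with 37.6, 45.7 and 62.9 in the Wistar samples and 79.2, 45.0 and 39.4 in the GK samples. Wistar 3 exceeded both GK 2 and GK 3 for this probe, and only GK 1 was above every Wistar array.

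**Figure D1:**
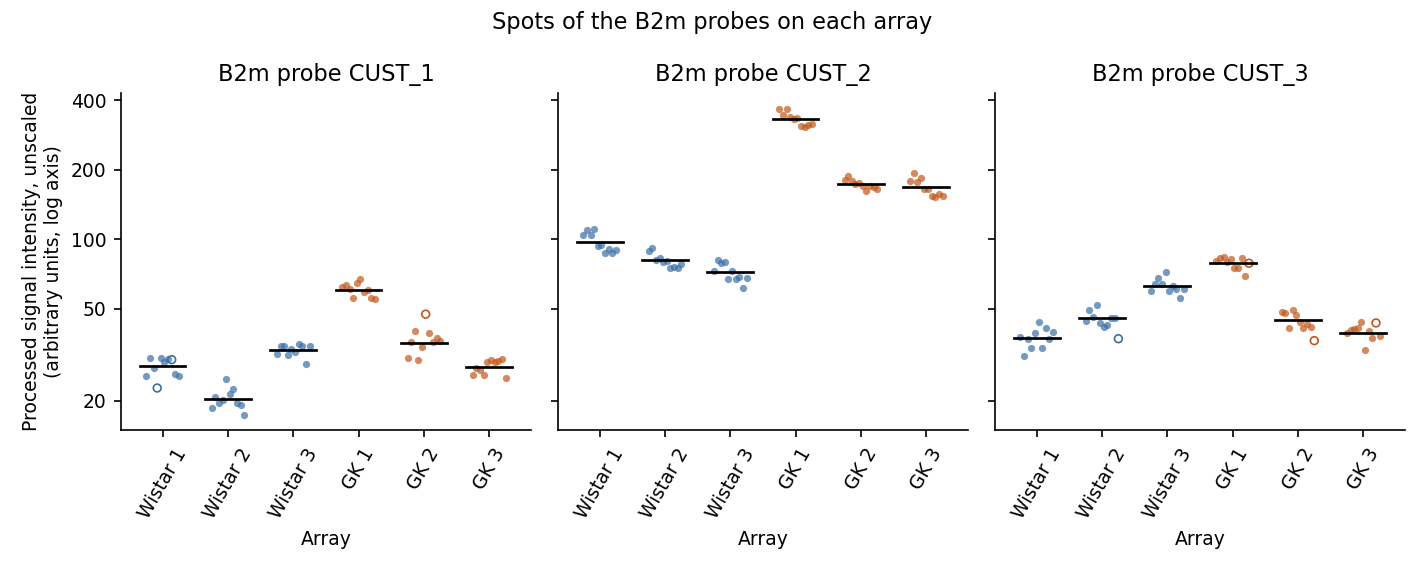
Unscaled processed signal intensity (log axis, arbitrary units) of every spot of the 3 B2m probes on each of the 6 arrays. Dots are spots, open circles are spots left out for an outlier flag, and black lines are array means. CUST_2 spots on GK arrays all lie above those on Wistar arrays, whereas CUST_1 and CUST_3 overlap.

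For the comparison between strains, the log2 signal was set relative to each array's 75th percentile over the probes detected on all 6 arrays. The percentile was 238.8, 197.0 and 202.1 in Wistar 1, 2 and 3 and 199.7, 151.1 and 141.8 in GK 1, 2 and 3, so scaling raises the GK arrays of the second slide most. The scaled log2 values of CUST_2 were -1.30, -1.28 and -1.49 in Wistar and 0.74, 0.20 and 0.24 in GK. The log2 difference was 1.75 (SE 0.25, n = 3 and 3), a 3.36-fold higher GK value with a 95% interval of 2.22 to 5.07. Its adjusted p in the limma fit over all 11406 tested probes was 0.111 (unadjusted p = 0.000208 in limma), so CUST_2 missed the threshold of 0.05 that 5 probes, or 0.0438%, passed.

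The scaled values of CUST_1 were -3.08, -3.27 and -2.61 in Wistar and -1.72, -2.09 and -2.33 in GK, without overlap. The difference was 0.94 (SE 0.29), or 1.91-fold, with an interval of 1.19 to 3.07 and an adjusted p of 0.430 in limma. Those of CUST_3 were -2.67, -2.11 and -1.68 in Wistar and -1.33, -1.75 and -1.85 in GK, and Wistar 3 lay above GK 2 and GK 3. The CUST_3 difference was 0.51 (SE 0.32), or 1.42-fold, with an interval of 0.84 to 2.41 and an adjusted p of 0.507 in limma.

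All GK arrays were above all Wistar arrays for 2 of the 3 probes after scaling, against 12.5% of tested probes. The same 2 met a looser criterion, an unadjusted limma p under 0.05 with a fold of 1.5 or more upward, which 7.93% of tested probes reached. Both counts depended on the scaling. With the percentile taken over all probes, without scaling and with arrays centred on the other named transcripts, CUST_2 alone kept the strains apart and alone met the looser criterion, and the share of tested probes with all GK arrays on top was 2.04%, 3.17% and 0.517%. With quantile normalization that share was 6.57%, and CUST_1 stayed without overlap but lost the looser criterion on its limma test, at 1.57-fold. CUST_1 also lost it under normexp background correction, at 1.41-fold, and without Wistar 2, at 1.73-fold. CUST_2 met it under all 21 other settings, as did 0.430% (centred on other transcripts) to 17.4% (piRNA probes left out) of tested probes. That share was 1.46% with the percentile over all probes, 2.06% without scaling, 3.45% with quantile normalization, 3.53% with normexp and 4.78% without Wistar 2. Under normexp all 3 probes had every GK array above every Wistar array, as 22.9% of tested probes did. The 3 probes read 1 gene in the same samples, so they are not separate observations. The median log2 difference of all tested probes was 0.17, and it depended on the scaling. Averaged over the 3 probes, B2m was at -2.35, -2.22 and -1.93 in Wistar and -0.77, -1.21 and -1.31 in GK, a difference of 1.07. The difference of this mean was 0.58 with the percentile over all probes, 0.68 without scaling, 0.69 with normexp and 0.17 with centring on the other named transcripts. Without GK 2 the differences of CUST_2, CUST_1 and CUST_3 were 1.85, 0.95 and 0.56.

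By slide, GK 1 lay above the mean of the Wistar arrays of its own slide by 2.09 (CUST_2), 1.26 (CUST_1) and 0.82 (CUST_3) on the log2 scale. GK 2 and GK 3, on the second slide, lay above that mean by 1.58, 0.77 and 0.36. The order of the probes was the same for both sets of GK arrays. Both were set against the same Wistar arrays, so the second slide gives no separate comparison of strains. With slide added to the fit as a block, the contrast rests on GK 1 against the 3 Wistar arrays, under the assumption that this single array varies like the others, and limma gave adjusted p of 0.407, 0.989 and 1.00 in the same order.

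How far the probes differed from each other can be read within each array, where the ratio of a pair of probes does not depend on the scaling between arrays. A ratio by itself also carries how well each probe binds, so only its change between arrays is compared. CUST_2 over CUST_3 was 2.59, 1.77 and 1.14 in the Wistar samples and 4.20, 3.85 and 4.26 in the GK samples. The GK ratios lay close together (SD 0.08 on the log2 scale, n = 3) and above all Wistar ratios, which were spread more widely (SD 0.59, n = 3). The ratio was 2.36-fold higher in GK. In a two-sided exact permutation test over arrays p was 0.1, the smallest that 3 against 3 allows.

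CUST_2 over CUST_1 was 3.44, 3.96 and 2.17 in the Wistar samples and 5.49, 4.87 and 5.98 in the GK samples, again without overlap, and was 1.76-fold higher in GK (exact permutation p = 0.1). CUST_1 over CUST_3 was 0.752, 0.448 and 0.528 in the Wistar samples and 0.764, 0.791 and 0.712 in the GK samples. Wistar 1 fell among the GK arrays in this last ratio, and the exact permutation p was 0.2. With the planned Benjamini-Hochberg adjustment over the 3 ratios, the permutation p were 0.15, 0.15 and 0.2 in the order given. The 3 ratios varied among GK arrays with log2 SDs of 0.08, 0.15 and 0.08 and among Wistar arrays with 0.59, 0.45 and 0.38, a contrast in spread that was not tested. Before scaling, Wistar 1 had the highest CUST_2 and the lowest CUST_3 signal of its strain, and Wistar 3 the reverse. After scaling, CUST_2 was close on Wistar 1 and Wistar 2, at -1.30 and -1.28. The scanner's raw spot signal minus local background, without the software's further steps, also kept the strains apart for CUST_2 over CUST_3, with 2.11, 1.63 and 1.13 in Wistar and 3.44, 2.83 and 3.20 in GK. The strain difference of this ratio was smaller there, at 1.00 on the log2 scale against 1.24, and smallest with normexp, at 0.81 or 1.76-fold. For CUST_1 over CUST_3 the log2 difference of 0.43 became 0.22 from the raw signal, 0.11 with normexp and 0.26 without Wistar 2.

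**Figure D2:**
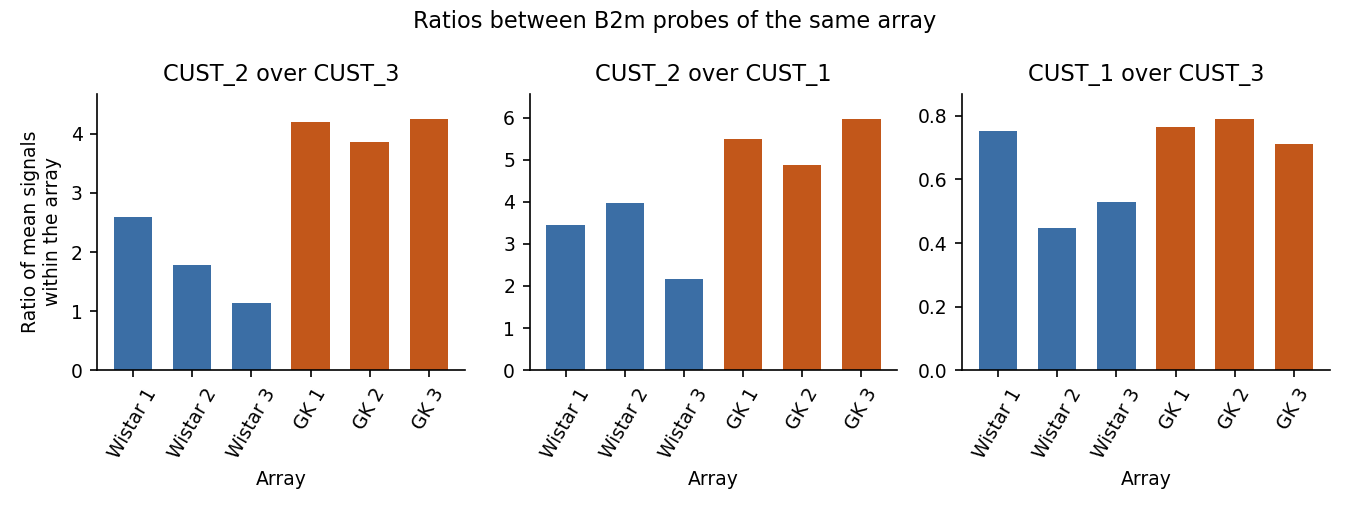
Ratio of the mean processed signals of 2 B2m probes within each array (linear axis from 0), blue for Wistar and orange for GK. Both ratios with CUST_2 on top are higher on all GK arrays than on any Wistar array, and CUST_1 over CUST_3 overlaps at Wistar 1.

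The custom design held 3 probes for each of 13 accessions, most of them reference genes, which allows B2m to be set beside probes made the same way. Of these 39 probes, 24 passed the well-above-background call on every array, and 4 of the 13 accessions had all 3 probes there: B2m, Actb (cytoskeletal actin), Hsp90ab1 (a cytosolic chaperone) and Rplp1 (a protein of the ribosomal stalk). The strain differences of the 3 probes ran from 0.51 to 1.75 for B2m, a span of 1.24 on the log2 scale. They ran from 0.11 to 0.22 for Actb, from 0.18 to 0.63 for Hsp90ab1 and from 0.25 to 0.42 for Rplp1.

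Over the 9 accessions with at least 2 probes on all arrays, 17 probe pairs could be formed. The within-array log2 difference between strains changed by 0.01 to 0.54 in absolute size for the 14 pairs of other transcripts, and strains overlapped in each of them. The strains did not overlap in 2 of the 17 pairs (11.8%), both of B2m. Probes that missed the background call on some arrays were left out of the pairs. For Ldha the log2 differences were 0.34 (CUST_18, detected on 6 arrays) and 1.25 (CUST_17, 4 arrays). An Ldha probe outside the custom design gave 3.37 (5 arrays). The tested Ldha probes thus lay further apart than those of B2m. A limma fit over the 17 pairs, added after the values were seen, called 1 of them (5.88%), CUST_2 over CUST_3, at 1.24 on the log2 scale (SE 0.30, adjusted p = 0.0138). CUST_2 over CUST_1 missed the threshold at 0.81 (SE 0.28, limma adjusted p = 0.0930), and CUST_1 over CUST_3 at 0.43 (SE 0.27, limma adjusted p = 0.459). Pairs of 1 gene share probes and are not independent, yet limma estimated each variance with the help of the other pairs. The call leans on this pooling over only 17 pairs. With the replicate as a block, the 3 B2m pairs even had the same SE, 0.31. Without GK 1 the limma adjusted p of CUST_2 over CUST_3 was 0.0735, and with the slide as a block, where GK 1 alone stands for its strain, it was 0.238, at log2 differences of 1.22 and 1.27.

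Of the 26 other tested custom probes, 18 had a positive log2 difference, 6 had all GK arrays above all Wistar arrays, 0 passed the adjusted threshold in limma and 1 had an unadjusted p under 0.05. Their differences ran from -0.63 to 1.27 with a median of 0.16, so none was as large as that of CUST_2. The largest belonged to a Gapdh probe, CUST_36, which was well above background on only 3 arrays. Among the 21 detected on all arrays the range was -0.63 to 0.75.

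**Figure D3:**
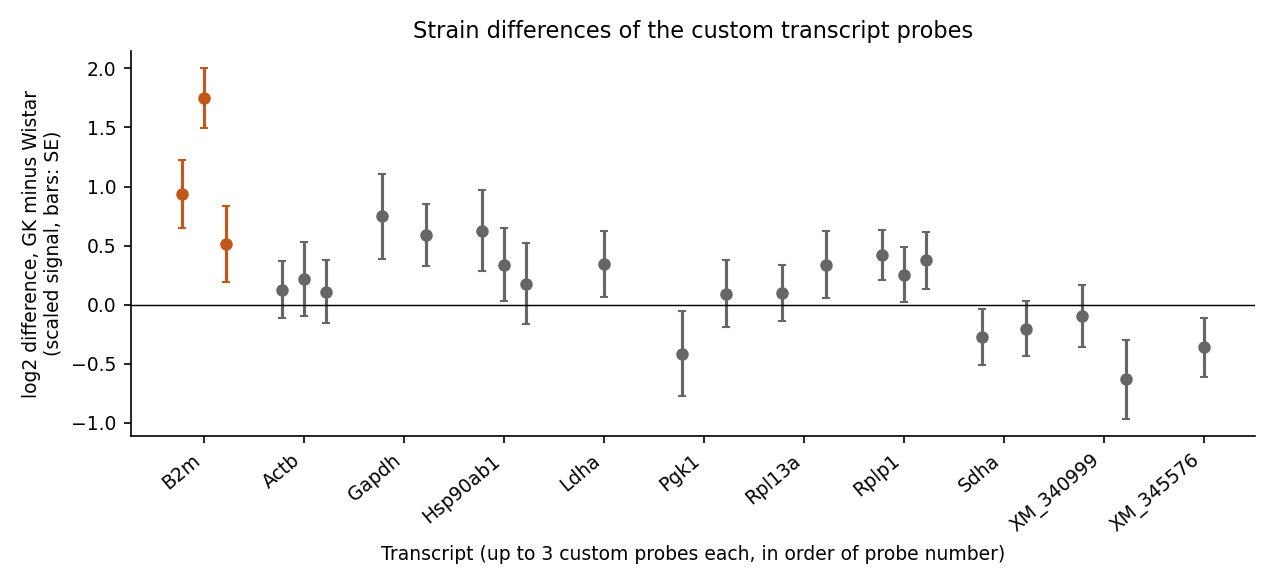
log2 difference between strains (GK minus Wistar, scaled signal) of the custom transcript probes that passed the background call on every array, grouped by transcript, with bars for the SE of the limma fit. B2m, in orange, spans 0.51 to 1.75, more than the other transcripts shown.

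Reference transcripts give a scale that stays within the array. Relative to the mean of Actb, Gapdh (a glycolytic enzyme), Rplp1 or Sdha (a subunit of succinate dehydrogenase), CUST_2 was higher in GK by 1.60, 1.08, 1.40 and 1.99 on the log2 scale. In all 4 comparisons every GK array lay above every Wistar array, with an exact permutation p of 0.1 each, the smallest possible. In all, 12 such comparisons were made, of B2m probes only. The share of all tested probes without overlap on these scales was not worked out, so the counts have no background. For CUST_1 the strains did not overlap against 3 of the 4, and the differences ran from 0.27 (Gapdh) to 1.17 (Sdha). For CUST_3 they did not overlap against 1 of the 4, and the differences ran from -0.16 (Gapdh) to 0.75 (Sdha). A ratio of this kind shows unequal change between B2m and the reference, not which of them changed. The means held only reference probes detected on all arrays, 3 each for Actb and Rplp1 and 2 each for Gapdh and Sdha. The Gapdh probe left out had a log2 strain difference of 1.27, against 0.75 and 0.59 for those used. The Sdha probe left out had -0.55, against -0.27 and -0.20.

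Of 23 other named genes with all probes detected on all arrays, Rplp1 had the pattern most like the B2m mean (Pearson r = 0.957, Spearman rho = 0.943, 6 arrays). Nat1, an arylamine acetyltransferase (r = 0.872, rho = 0.829), and P2rx2, an ATP-gated channel (r = 0.858, rho = 0.714), came next. Cdh2, which encodes N-cadherin, was the least alike (r = -0.795, rho = -0.829). These values describe 6 arrays that share 1 scaling and fall into 2 strains. Likeness of pattern is not likeness of size, since the mean log2 difference was 0.35 for Rplp1 and 3.18 for P2rx2.

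Processing moved the size of the B2m differences. CUST_2 kept the largest difference, CUST_1 the next and CUST_3 the smallest under the reported setting and all 21 other settings listed in the plot of settings. Many of these settings cannot alter the order. They shift all probes of an array alike, or change only the filter, the fitted probes, the variance model or the replicate block. The order could have changed with quantile normalization, normexp, another handling of spots, the slide settings or an array left out. The CUST_2 value ranged from 0.85, when each array was centred on the median of the other named transcript probes, to 2.09 within the first slide. CUST_2 passed the adjusted limma threshold in 2 of the 21 other settings. These were normexp background correction, at 1.19 (limma adjusted p = 0.0384), and piRNA probes left out of the fit, at 1.75 (limma adjusted p = 0.00710). In these fits 15 of 11406 and 4 of 92 probes passed. Without piRNA probes the unadjusted limma p of CUST_2 was 0.000231, against 0.000208 as reported, and the adjustment ran over fewer probes. All GK arrays were on top for 26.1% of those 92 probes.

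**Figure D4:**
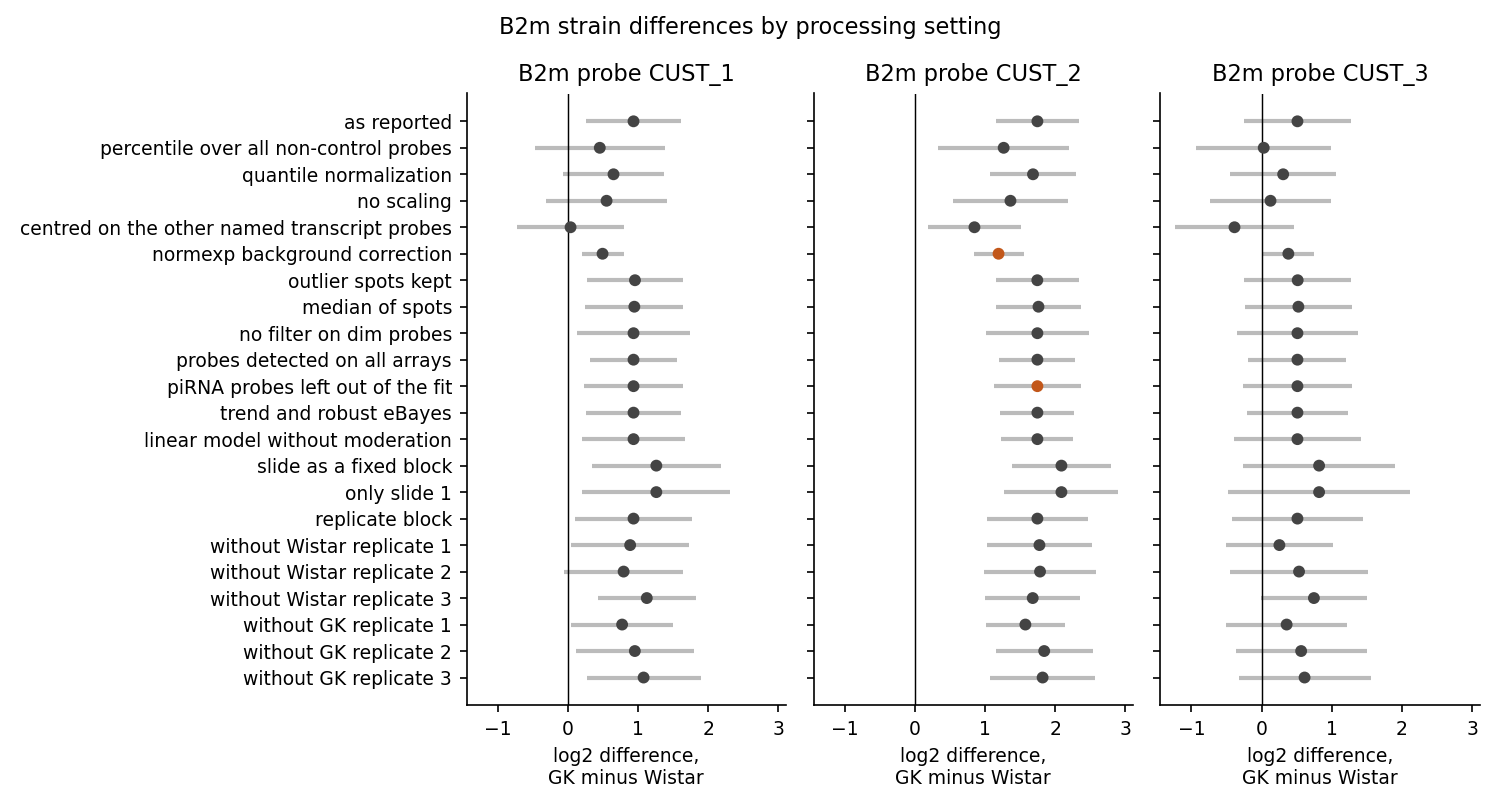
log2 difference between strains (GK minus Wistar) of each B2m probe under the reported setting and 21 other settings, with 95% intervals as grey bars and orange dots where the limma adjusted p is under 0.05. CUST_2 lies between 0.85 and 2.09 throughout, whereas CUST_3 reaches -0.39 in 1 setting.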

How the data were processed

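Islet RNA of 3 Wistar and 3 GK rats was hybridised to 1-colour arrays, 1 sample per array. The deposited scanner files hold spot intensity values for 42734 spots per array, made with Agilent Feature Extraction 11.0.1.1 per the file headers. Its processed signal intensity is background-subtracted and not normalized between arrays. The authors' matrix and comparison table hold no B2m probe and were not used. Well-above-background, outlier and saturation flags of the deposited files (other values, 0 or 1) were read as given.

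Unflagged spots were averaged per probe, and log2 values were taken after averaging, minus the log2 75th percentile over the 7794 probes detected on all arrays (over 50% of spots well above background). Probes detected on at least 3 arrays were fitted with limma 3.58.1 in R 4.3.3 (lmFit and eBayes, strain only, Benjamini-Hochberg over 11406 probes). The code was checked on simulated data only for returning the log2 changes put in. All adjusted p come from limma, except those of the permutation tests of the 3 B2m probe ratios. Exact permutation tests (Python 3.11.15) were two-sided. Gene symbols came from RefSeq accessions of GRCr8. Normexp used the median spot signal with an offset of 50.

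B2m, the lists and the tests were chosen with earlier results of these data known. The limma fit of probe pairs, the raw-signal ratios, the comparisons with reference transcripts and the split by rows were added after the values were seen. B2m probes were named in full, with the 3 most and the 1 least similar genes and 6 listed reference genes where present. Hprt1 was not detected on all arrays.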

Additional observations from a re-analysis of the deposited data

How the results depend on the processing

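The direction of CUST_1, CUST_2 and the B2m mean was the same under all 21 other settings. Among these, changes to the filter, the fitted probes or the variance model and the replicate block leave the estimates as reported. They cannot turn a direction. CUST_3 turned to -0.39 with arrays centred on the other named transcript probes, and, in a comparison added later, to -0.16 relative to Gapdh. The cause was not tested. CUST_2 passed limma's adjusted threshold with normexp (1.19) and with piRNA probes left out (1.75, where 4 of 92 fitted probes passed). The scalings gave 1.27 (all non-control probes), 1.69 (quantile) and 1.36 (none) for CUST_2, and 0.03, 0.31 and 0.13 for CUST_3. For CUST_1 they gave 0.46, 0.65 and 0.55, normexp gave 0.49 and centring on the other transcripts 0.04. A shift by their median deviation from their own means, added later, gave CUST_2 1.43, CUST_1 0.61 and CUST_3 0.19. Leaving out 1 array gave 1.58 to 1.85 for CUST_2, 0.77 to 1.13 for CUST_1, 0.25 to 0.75 for CUST_3, 0.94 to 1.52 for CUST_2 over CUST_3, 0.56 to 0.99 for CUST_2 over CUST_1 and 0.26 to 0.63 for CUST_1 over CUST_3. CUST_3 was 0.25 without Wistar 1. The limma call of CUST_2 over CUST_3 was lost without GK 1 (1.22) and with the slide as a block (1.27).

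Replicate numbers did not pair the samples (correlations of deviations -0.12, -0.002 and 0.05). The replicate block left the CUST_2 difference at 1.75 (limma adjusted p = 0.321), and 0 probes passed against 5 without it.

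The 5 probes past limma's adjusted threshold became 14 with the percentile over all probes, 15 under normexp, 8 when flagged spots stayed in, 8 with trend and robust eBayes, 2 among probes detected on all arrays and 2430 with centring on the other transcripts. It was 0 with quantile normalization, without the filter, without moderation, with the slide or the replicate as a block and on slide 1 alone, where 1004, 2512, 1026, 418, 1271 and 388 probes had an unadjusted p under 0.05. Leaving out 1 array gave 0 to 21, the 21 without GK 1. By the looser criterion (limma p under 0.05 before adjustment, fold 1.5 or more) 904 probes were higher and 316 lower in GK, against 394 and 603 with quantile normalization, 167 and 1098 with all probes in the percentile, 235 and 1021 unscaled and 49 and 5011 with centring on other transcripts. CUST_1 had the least room above background (raw spot signal 53.5 to 92.8 over a local background of 18.5 to 21).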

Other observations

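On each of the 6 arrays the 5 CUST_2 spots in the upper rows (up to row 414) were brighter than the 5 in the lower rows, by a ratio of 1.07 to 1.16. For CUST_3 the upper spots (up to row 275) were brighter on 5 of 6 arrays (0.915 to 1.11). For CUST_1 the upper spots (up to row 135) were brighter on 4 (0.921 to 1.04). The upper rows thus cover different parts of the array for each probe. The scaled log2 difference of CUST_2 between strains was 1.74 from the upper spots and 1.76 from the lower ones. For CUST_3 the values were 0.55 and 0.46, and for CUST_1 0.89 and 0.98.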
